A study of Mus musculus with 12 samples.

Results

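This report describes 41 genes of adipocytes and lipid storage in cartilage progenitor pellets that were moved from chondrogenic to osteogenic medium. The genes were taken by symbol from a list of adipokines, lipid droplet proteins, lipid uptake and transport proteins, enzymes of fatty acid and triglyceride synthesis, lipases and adipogenic transcription factors. The list was drawn up with results of these data in view, among them the rise of Cfd at the last time point, so the changes below describe the listed genes and give no independent support for their selection. All 41 were found among the 28244 genes with values, and all 41 were among the 17674 genes that could be tested. They were also kept by the same filter when the D28 libraries were not used for it, so none passed only through its D28 level.

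RNA was sequenced from pellets of murine mesenchymal progenitors of C57/BL6 pups aged 5 or 6 days, digested from the heads and condyles of femurs and tibiae. Every pellet received chondrogenic medium for 7 days, and 3 libraries (D7) were taken at the end of this phase. Osteogenic medium followed, and 3 libraries each were taken after 1 day (D8), 3 days (D10) and 21 days (D28) in it. Pellets kept in chondrogenic medium throughout were not analysed here, so time in culture and osteogenic medium cannot be told apart. The starting cells were primary, and no lineage reporter is named for the sequenced samples. The study described such cells, from flow cytometry, as a uniform population lacking Ter119 and CD45 and bearing PDGFR and CD51. The composition of both media is not given in the sources used here. The labels do not say whether replicates came from separate animals or cultures, so p-values measure only the spread between these libraries, which may be technical.

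Each value is the log2 of an equalized read count plus 1, and the word level below refers to this scale. Original library totals are not kept in such values. Relative depth, read from the steps between low values, was 0.790 to 1.06 at D7, 0.962 to 1.22 at D8, 0.730 to 1.05 at D10 and 1.20 to 1.31 at D28. The level of 1 read lay between 0.50 and 1.81, and 3 reads at up to 2.87, which covers counting error only. A gene passed the threshold, and is said to have risen or fallen, when its log2 fold change was 1 or more in either direction and its Benjamini-Hochberg adjusted p, over all genes tested in a limma fit of the 12 libraries, was under 0.05. The log2 fold change understates the change of genes with few reads, because 1 is added to each count. Levels are not scaled by gene length, so they are compared between libraries and not between genes.

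Adipocytes store triglyceride in a lipid droplet coated by perilipins and CIDE proteins, fill it by uptake of fatty acids and by lipogenesis, empty it through lipases, and secrete adipokines such as adiponectin and leptin. Differentiation runs through a cascade in which C/EBP beta and delta precede PPAR gamma and C/EBP alpha, which switch on most of the other genes of the list. In bone, marrow stromal cells can give rise to adipocytes as well as osteoblasts, and many of the same lipid genes also act in other cells. In bulk RNA, fewer cells of a type and less RNA per cell cannot be told apart.

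The 41 genes reached their highest mean level at D28 in 38 cases, at D10 in 2 (Plin2 and Cebpb) and at D7 in 1 (Acaca). Their lowest mean was at D10 for 30 genes, at D7 for 7, at D8 for 4 and at D28 for 0. Among all genes tested, 28.1% had their highest mean at D28 and 27.6% their lowest at D10. Plin2 and Cidea were the 2 genes that rose at both D8 and D10 against D7.

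On the first day of osteogenic medium, 2 genes rose, 10 fell and 29 did not pass the threshold for D8 against D7, while 3.23% of all genes tested rose and 3.81% fell (7.04% in either direction). Between D8 and D10, 3 rose, 11 fell and 27 did not pass, beside 4.08% and 5.58% of all genes (9.66% in either direction). For D10 against D7 the counts were 2 higher, 17 lower and 22 not called, with 8.5% of all genes higher and 10.4% lower (18.9% in either direction). From D10 to D28, 33 rose, 1 fell and 7 did not pass, beside 13.8% and 13.7% of all genes (27.5% in either direction). For D28 against D7, 31 were higher, 0 lower and 10 not called, beside 8.63% and 8.66% of all genes (17.3% in either direction). Cfd is among the genes counted higher at D28, and without it 32 of the other 40 genes rose from D10 to D28 and 30 of 40 were higher at D28 than at D7. No gene was lower at D28 than at D7 at an unadjusted limma p under 0.05 either (0 of 41), and 36 of the 40 genes other than Cfd were higher. The shares of all genes above are for the threshold. None was computed for an unadjusted p, here or for the lists below, so those counts have no background. Because the genes were listed with results in view, nothing is read from the distance between these counts and the shares of all genes.

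The median log2 fold change of the 41 genes was -0.55 between D7 and D8, -0.36 between D8 and D10 and -0.89 between D7 and D10. It was 2.62 between D10 and D28, and 1.86 between D7 and D28. In the same order, the medians over all genes tested were 0.03, 0, 0.05, -0.10 and -0.03. When values below 2.87, the highest level of 3 reads, were set to 2.87, the medians of the 41 genes were -0.53, -0.28, -0.66, 2.57 and 1.82. Summed without the log, the 41 genes took 0.349% ± 0.0369 (SD, n = 3) of the equalized counts at D7, 0.233% ± 0.0347 at D8 and 0.236% ± 0.0201 at D10, and 1.12% ± 0.124 of them at D28. Scd1 held the largest part of this sum at D28, and without it the shares of D7, D8, D10 and D28 were 0.219%, 0.158%, 0.187% and 0.646%. The range at D28, 1.03% to 1.26%, did not overlap the range of any other time point.

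**Figure D1:**
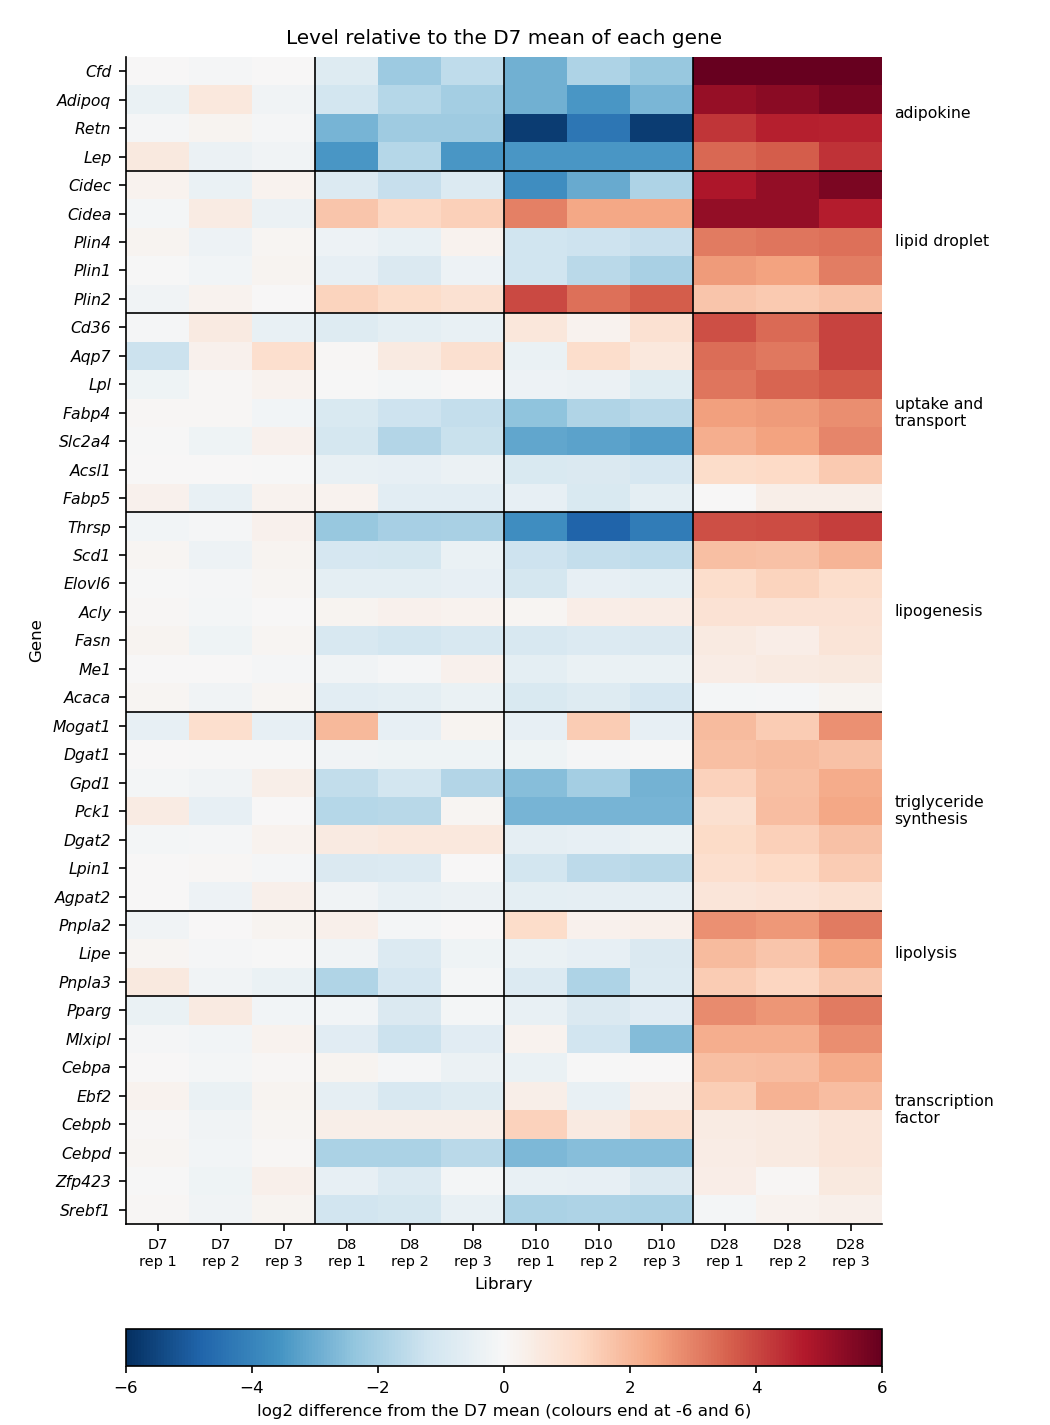
Level of each of the 41 genes (rows, grouped by role) in each of the 12 libraries (columns), as the log2 difference from the mean of the D7 libraries of the same gene; colours end at -6 and 6. Blue, lower than D7, fills most rows at D8 and D10, Plin2 and Cidea are red there, and the D28 columns are red in nearly all rows, while Fabp5, Acaca, Zfp423 and Srebf1 stay pale.

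The adipokines are the secreted products of adipocytes. Adipoq (chr16:23146536-23158028, plus strand, GRCm38), which codes for adiponectin, stood at 6.65, 7.67 and 6.86 in the D7 libraries, 5.97, 5.33 and 5.03 at D8, 4.16, 3.58 and 4.31 at D10 and 12.30, 12.45 and 12.74 at D28. Every step separated the libraries without overlap. Adipoq fell by 1.61 (standard error 0.29, limma adjusted p = 0.00107) at D8 and by another 1.43 (0.29, adjusted p = 0.00203) at D10, both on the log2 scale. At D28 it was 5.44 (standard error 0.29, limma adjusted p = 2.3e-09) above D7 on the log2 scale.

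Cfd (chr10:79890853-79892655, plus strand), coding for adipsin, the complement factor D secreted by adipocytes, was at 4.75, 4.66 and 4.72 at D7, 3.91, 2.52 and 3.20 at D8 and 1.81, 2.84 and 2.44 at D10, where the libraries held 1, 4 and 3 reads. At D28 it was at 13.58, 13.94 and 14.20. Its fall at D10 against D7 was 2.35 on the log2 scale (standard error 0.34, limma adjusted p = 5.6e-05). Its D28 level is given without a test, since it was known when the list was made.

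Retn (chr8:3655770-3660110, plus strand), coding for resistin, was at 5.62, 5.85 and 5.60 at D7, 2.92, 3.55 and 3.55 at D8, 0, 1.37 and 0 at D10 and 9.98, 10.37 and 10.29 at D28. The 3 libraries of D10 together held 1 read of Retn. The D28 level was 2086 times that of D10, with a 95% counting interval of 374.5 to 82410. Against D7, Retn was higher at D28 by 4.52 on the log2 scale (standard error 0.38, limma adjusted p = 2.4e-07). Lep (chr6:29060220-29073877, plus strand), coding for leptin, stood at 4.04, 3.12 and 3.26 at D7, 0, 1.77 and 0 at D8, 0 in every D10 library and 6.91, 7.10 and 7.82 at D28. Leptin RNA was thus not detected at D10, and its D28 level was at least 21.1-fold higher, taken against a floor of 3 reads per library. Against D7, Lep was higher at D28 by 3.81 on the log2 scale (standard error 0.53, limma adjusted p = 4.2e-05). All 4 adipokine genes passed the threshold downward at D8 and at D10 against D7, and the 3 other than Cfd passed it upward at D28 against D7. The falls of Lep at D8 and D10 against D7 did not pass when low values were raised to the 3-read level. The D10 libraries, with a relative depth of 0.730 to 1.05, included the shallowest of the series.

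Promoters of 3 adipokine genes and 2 perilipin genes are shown as examples. Cfd, Adipoq, Lep and Plin1 are among the 30 of the 41 genes with their lowest mean at D10, and Plin2 had its highest there. Each window is taken from the RefSeq promoter table (GRCm38.p6) and runs from 250 bases before to 50 bases after the annotated start, on the strand of the gene. Windows were found for 30 of the 41 genes (41 windows). Cidea, Cebpd, Fabp4, Fabp5, Lpl, Scd1, Dgat1, Dgat2, Slc2a4, Gpd1 and Ebf2 had none in the table. Capitals mark matches, on either strand, to 7 motifs. These were the TATA box TATAAA, the CAAT box CCAAT, the GC box GGGCGG, the E-box CACGTG, the C/EBP-type motif TTGCNNAA, the sterol-element-type motif TCACNCCAC and a PPAR-type direct repeat of AGGNCA copies 1 base apart, and matches of different motifs did not overlap in these windows. The windows are Cfd at chr10:79890603-79890902 (plus), Adipoq at chr16:23146286-23146585 (plus), Lep at chr6:29059971-29060270 (plus), Plin1 at chr7:79732727-79733026 (minus) and Plin2 at chr4:86670010-86670309 (minus).
Cfd: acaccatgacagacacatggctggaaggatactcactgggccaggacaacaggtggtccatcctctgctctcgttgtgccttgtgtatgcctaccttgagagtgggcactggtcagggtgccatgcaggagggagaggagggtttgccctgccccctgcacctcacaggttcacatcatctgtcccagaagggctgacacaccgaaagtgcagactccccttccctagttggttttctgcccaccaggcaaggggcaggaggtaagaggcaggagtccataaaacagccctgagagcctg
Adipoq: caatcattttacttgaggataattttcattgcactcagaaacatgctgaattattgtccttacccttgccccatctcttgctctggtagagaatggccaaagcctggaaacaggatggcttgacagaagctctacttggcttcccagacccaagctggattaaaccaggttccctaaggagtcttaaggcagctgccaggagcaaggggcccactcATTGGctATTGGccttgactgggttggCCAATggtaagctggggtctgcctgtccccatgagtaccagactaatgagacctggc
Lep: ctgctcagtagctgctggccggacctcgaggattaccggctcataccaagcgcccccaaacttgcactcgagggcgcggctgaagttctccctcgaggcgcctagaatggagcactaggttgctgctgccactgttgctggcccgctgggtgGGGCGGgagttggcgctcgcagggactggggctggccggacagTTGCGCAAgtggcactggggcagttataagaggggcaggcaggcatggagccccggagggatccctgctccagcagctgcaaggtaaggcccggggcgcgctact
Plin1: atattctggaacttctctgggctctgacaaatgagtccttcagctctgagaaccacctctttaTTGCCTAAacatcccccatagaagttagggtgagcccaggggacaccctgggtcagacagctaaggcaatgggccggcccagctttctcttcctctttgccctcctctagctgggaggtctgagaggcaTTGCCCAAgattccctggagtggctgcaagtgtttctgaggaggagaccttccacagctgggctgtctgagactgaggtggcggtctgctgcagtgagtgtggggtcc
Plin2: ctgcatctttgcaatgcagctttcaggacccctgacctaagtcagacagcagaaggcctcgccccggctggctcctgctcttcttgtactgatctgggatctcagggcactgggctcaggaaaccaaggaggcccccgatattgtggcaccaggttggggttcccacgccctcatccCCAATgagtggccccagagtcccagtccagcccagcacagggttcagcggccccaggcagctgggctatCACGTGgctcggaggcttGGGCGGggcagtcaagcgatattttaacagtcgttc

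The Cfd window held none of the 7 motifs. The Adipoq window held CCAAT 3 times in its last 100 bases, at -34 and -27 on the opposite strand and at -7 on the gene's own strand, counted from the start site. The Lep window held GGGCGG at -98 and the palindromic TTGCGCAA at -55. The Plin1 window held TTGCCTAA at -187 and TTGCCCAA at -58, while the Plin2 window held CCAAT at -73, CACGTG at -4 and GGGCGG at 15. TTGCNNAA was present in 12.2% of the 41 windows and in 10.8% of all 32851 windows of the table, CCAAT in 39.0% and 37.4%, GGGCGG in 46.3% and 35.7%, CACGTG in 7.3% and 7.2%, TATAAA in 7.3% and 13.6%, TCACNCCAC in 4.9% and 1.2%, and the direct repeat in 0.0% and 0.4%. These are matches of letters in short windows, not measured binding sites, and a missing match says only that the letters are not in the window.

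Of the lipid droplet genes, 3 followed the adipokines and 2 did not. Cidec (chr6:113424634-113435760, minus strand), a CIDE protein that enlarges droplets in white adipocytes, was at 5.74, 5.13 and 5.75 at D7, 4.74, 4.16 and 4.73 at D8, 1.81, 2.50 and 3.68 at D10 and 10.40, 10.82 and 11.18 at D28. It fell by 2.88 at D10 against D7 (standard error 0.40, limma adjusted p = 3.5e-05) and was 5.26 above D7 at D28 (0.40, adjusted p = 8e-08). Plin1, the perilipin that gates lipase access to the droplet, was at 7.82, 7.68 and 8.01 at D7, 7.36, 6.96 and 7.55 at D8, 6.62, 6.21 and 5.90 at D10 and 10.37, 10.23 and 10.91 at D28. The D28 libraries of both genes stood above all others and the D10 libraries below all others. Plin1 was higher at D28 than at D7 by 2.67 on the log2 scale (standard error 0.22, limma adjusted p = 2e-07), and Plin4, another perilipin, by 3.22 (0.16, adjusted p = 1e-09). Plin4 ranged from 9.42 to 9.90 at D7, 9.26 to 9.91 at D8, 8.32 to 8.53 at D10 and 12.82 to 13.03 at D28.

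Plin2 (chr4:86648386-86670060, minus strand), the perilipin found on droplets of most cell types, had the opposite course during the first days. Its levels were 10.31, 10.73 and 10.58 at D7, 11.86, 11.65 and 11.46 at D8, 14.50, 13.84 and 14.16 at D10 and 12.21, 12.11 and 12.23 at D28. No time points overlapped, and D10 stood highest. Plin2 rose by 1.12 (standard error 0.16, limma adjusted p = 0.00014) from D7 to D8 and by 2.51 (0.16, adjusted p = 9.1e-08) from D8 to D10. It then fell by 1.98 (standard error 0.16, limma adjusted p = 5e-08) to D28, the only fall among the 41 genes in that step. Cidea, the CIDE protein that is prominent in brown fat droplets, rose at every step, from 3.81, 4.43 and 3.56 at D7 through 5.60, 5.16 and 5.38 at D8 and 6.93, 6.27 and 6.28 at D10 to 9.20, 9.22 and 8.63 at D28. Without D10 replicate 1 the step of Cidea from D8 to D10 was 0.89, under the fold threshold. The total from D7 to D28 was 5.08 on the log2 scale (standard error 0.29, limma adjusted p = 4.4e-09). At D10, when Adipoq, Retn, Lep, Cfd, Cidec and Plin1 were at their lowest, Plin2 and Cidea were thus 3.63 and 2.56 above D7.

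**Figure D2:**
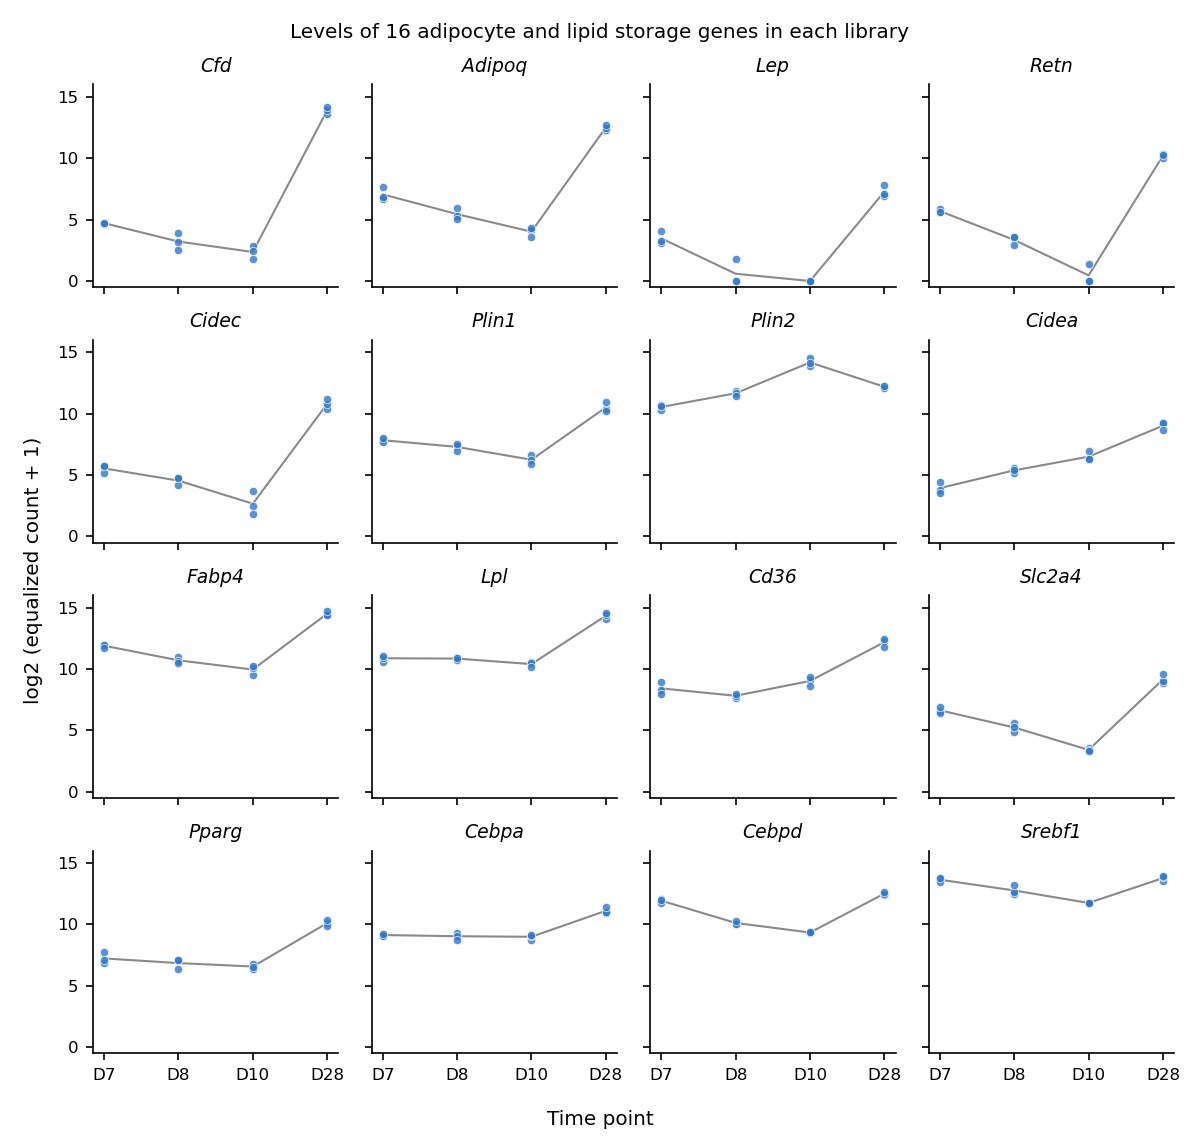
Level, log2 (equalized count + 1), of 16 of the genes at D7, D8, D10 and D28; each point is 1 library (3 per time point) and the line joins the means. Adipoq, Retn, Lep and Cidec dip to D10 and are highest at D28, Plin2 peaks at D10 with libraries between 13.84 and 14.50, and Cidea climbs throughout.

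Of the 7 genes of lipid uptake and transport, Slc2a4 and Fabp4 fell at D10 against D7, Cd36 rose from D8 to D10, and 6 were higher at D28 than at D7. Slc2a4, the insulin-responsive glucose transporter GLUT4, was at 6.61, 6.40 and 6.91 at D7, 5.57, 4.86 and 5.29 at D8, 3.54, 3.43 and 3.29 at D10 and 8.84, 9.03 and 9.59 at D28. It fell by 3.22 on the log2 scale at D10 against D7 (standard error 0.27, limma adjusted p = 2.1e-07) and was 2.51 above D7 at D28 (0.27, adjusted p = 2.9e-06). Fabp4, the fatty acid binding protein of adipocytes, was at 11.99, 11.98 and 11.73 at D7, 11.003, 10.64 and 10.49 at D8, 9.50, 10.11 and 10.27 at D10 and 14.37, 14.44 and 14.71 at D28. Its fall at D10 against D7 was 1.94 (standard error 0.18, limma adjusted p = 5.7e-07) and its rise at D28 against D7 was 2.61 (0.18, adjusted p = 2.8e-08).

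Lpl, the lipase that releases fatty acids from lipoproteins, was at 10.61, 10.93 and 11.09 at D7, 10.86, 10.77 and 10.92 at D8, 10.58, 10.51 and 10.13 at D10 and 14.07, 14.36 and 14.57 at D28. The libraries of the first 2 time points overlapped and those of D28 stood far above. Lpl did not pass the threshold before D10 (log2 fold change -0.47 at D10 against D7) and was higher at D28 than at D7 by 3.46 (standard error 0.15, limma adjusted p = 2.8e-10). Cd36, a fatty acid translocase, was at 8.33, 8.97 and 7.98 at D7, 7.66, 7.83 and 7.98 at D8, 9.12, 8.65 and 9.32 at D10 and 12.27, 11.82 and 12.47 at D28. It rose by 1.21 from D8 to D10 (standard error 0.23, limma adjusted p = 0.00124), against the direction of most of the list, and stood 3.76 above D7 at D28 (0.23, adjusted p = 8.9e-09).

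Aqp7, a glycerol channel, had few reads until D10 (levels 1.54 to 3.91) and was at 6.21, 6.01 and 6.87 at D28, 3.52 above D7 (standard error 0.56, limma adjusted p = 0.00014). Acsl1, which activates long-chain fatty acids, ranged from 9.39 to 9.42 at D7, 8.91 to 9.05 at D8, 8.42 to 8.55 at D10 and 10.52 to 10.99 at D28, a rise of 1.30 against D7 (standard error 0.12, limma adjusted p = 6.7e-07). Fabp5, the epidermal-type fatty acid binding protein, did not pass the threshold in any of the 5 comparisons, but was at its edge from D10 to D28 and passed with median-of-ratios scaling (1.03) or without D28 replicate 1 (1.005). Its libraries ranged from 9.92 to 10.59 at D7 and from 10.39 to 10.71 at D28, and these ranges overlapped.

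In lipogenesis, Thrsp had the widest swing. Thrsp, a nuclear protein (Spot 14) that promotes lipogenesis, was at 5.99, 6.08 and 6.44 at D7, 3.91, 4.16 and 4.22 at D8, 2.44, 1.37 and 1.97 at D10 and 10.02, 10.09 and 10.34 at D28. The D10 libraries held 2, 1 and 2 reads. Thrsp was lower at D8 than at D7 by a log2 fold change of -2.08 (standard error 0.30, limma adjusted p = 0.00017) and higher at D28 than at D7 by 3.98 (0.30, adjusted p = 6.7e-08). Scd1, the desaturase that makes oleate, was at 15.11, 14.72 and 15.19 at D7, 13.98, 13.94 and 14.62 at D8, 13.78, 13.58 and 13.49 at D10 and 16.82, 16.76 and 17.03 at D28. It fell by 1.39 at D10 against D7 (standard error 0.19, limma adjusted p = 2.8e-05) and was 1.86 above D7 at D28 (0.19, adjusted p = 1.6e-06). Elovl6, an elongase of saturated fatty acids, ranged from 8.50 to 8.70 at D7, 7.54 to 8.11 at D10 and 9.65 to 9.93 at D28, a rise of 1.16 against D7 (standard error 0.15, limma adjusted p = 2.3e-05).

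The enzymes that build palmitate from citrate passed the threshold in few comparisons. Fasn, fatty acid synthase, was at 13.01, 12.63 and 12.97 at D7, 11.93, 11.78 and 11.89 at D8, 11.90, 12.05 and 11.99 at D10 and 13.41, 13.29 and 13.66 at D28. It was at the edge of the threshold of -1 at D8 against D7 (standard error 0.12, limma adjusted p = 4.7e-05) and rose by 1.47 from D10 to D28 (0.12, adjusted p = 9.2e-08), but its change of 0.58 at D28 against D7 did not reach the fold threshold. Without D7 replicate 1, D7 replicate 3 or D8 replicate 2 its D8 log2 fold change was -0.93, -0.95 or -0.96, short of the threshold. Acly, which makes cytosolic acetyl-CoA, had mean levels of 11.69, 11.90, 12.01 and 12.55 in order of time, and Me1, a source of NADPH, of 12.58, 12.57, 12.12 and 13.10. Acaca, acetyl-CoA carboxylase 1, had means of 11.84, 11.31, 10.95 and 11.83. Acly, Me1 and Acaca passed the threshold in none of the 5 comparisons, but some were at its edge. With median-of-ratios scaling Acaca (1.02) and Me1 (1.11) passed it from D10 to D28, Me1 also passed without D10 replicate 2, D10 replicate 3 or D28 replicate 1 (1.01, 1.01 and 1.02), and Acaca passed at D10 against D7 without D7 replicate 2 (-1.01). The D28 and D7 libraries of Acaca overlapped (log2 fold change -0.01, standard error 0.12).

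Among the genes of triglyceride synthesis, Gpd1, which supplies glycerol 3-phosphate, was at 7.54, 7.46 and 8.04 at D7, 6.18, 6.57 and 5.93 at D8, 5.12, 5.64 and 4.86 at D10 and 9.08, 9.50 and 9.88 at D28. It was lower at D10 than at D7 by a log2 fold change of -2.47 (standard error 0.26, limma adjusted p = 2.4e-06) and higher at D28 by 1.81 (0.26, adjusted p = 5.9e-05). Dgat1, which catalyses the last step of triglyceride synthesis, changed only late: its libraries lay between 8.36 and 8.64 at the first 3 time points and at 10.43, 10.50 and 10.40 at D28. The D28 level was 1.82 above D7 (standard error 0.11, limma adjusted p = 5.8e-09). Dgat2, the other enzyme of this step, ranged from 8.65 to 9.01 at D7, 9.32 to 9.40 at D8, 8.22 to 8.37 at D10 and 9.94 to 10.56 at D28. It fell by 1.07 from D8 to D10 (standard error 0.15, limma adjusted p = 9.5e-05) and was 1.45 above D7 at D28 (0.15, adjusted p = 1.6e-06).

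Lpin1, a phosphatidate phosphatase, ranged from 11.15 to 11.31 at D7, 9.56 to 10.13 at D10 and 12.25 to 12.74 at D28. It fell by 1.45 at D10 against D7 (standard error 0.20, limma adjusted p = 3.7e-05) and was 1.25 above D7 at D28 (0.20, adjusted p = 0.00016). Agpat2, the acyltransferase whose loss causes lipodystrophy, rose by 1.39 from D10 to D28 (standard error 0.14, limma adjusted p = 5.6e-07), while its change of 0.84 against D7 stayed under the fold threshold. Pck1, the phosphoenolpyruvate carboxykinase of glyceroneogenesis, was at 3.26, 2.30 and 2.79 at D7, 0 in every D10 library and 3.75, 4.62 and 5.10 at D28, at least 3.07-fold above D10. Its fall at D10 against D7 did not pass when low values were raised to the 3-read level (log2 fold change -0.13). Mogat1, a monoacylglycerol acyltransferase, was near the limit of detection, with 2, 5, 2 and 26 reads summed over the libraries of each time point in order, and its ratio of D28 to D7 was 6.82 with a 95% counting interval of 1.89 to 56.3. Its call at D28 against D7 (limma adjusted p = 0.0478) was lost without D7 replicate 1 or 3, D8 replicate 3 or any one of the D28 libraries, with adjusted p from 0.0571 to 0.161. For Pck1, the same comparison (log2 fold change 1.71, limma adjusted p = 0.03) was lost without D7 replicate 2 or 3 or D28 replicate 2 or 3 (adjusted p from 0.0637 to 0.122).

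The 3 lipase genes rose together at D28. Pnpla2, adipose triglyceride lipase, was at 9.20, 9.41 and 9.58 at D7, 9.68, 9.29 and 9.40 at D8, 10.48, 9.63 and 9.69 at D10 and 12.13, 12.02 and 12.51 at D28. It showed no dip at D10 and was 2.83 above D7 at D28 (standard error 0.20, limma adjusted p = 3.6e-08). Lipe, hormone-sensitive lipase, was at 7.89, 7.70 and 7.73 at D7, 7.55, 6.95 and 7.54 at D8, 7.36, 7.29 and 6.93 at D10 and 9.68, 9.46 and 10.15 at D28, a rise of 1.98 against D7 (standard error 0.21, limma adjusted p = 2e-06). Pnpla3, a droplet-bound relative of Pnpla2, ranged from 4.86 to 5.85 at D7, 3.43 to 4.45 at D10 and 6.53 to 6.85 at D28, 1.46 above D7 (standard error 0.43, limma adjusted p = 0.0148). The fall of Pnpla3 at D10 against D7 (log2 fold change -1.16, limma adjusted p = 0.0425) was lost without D7 replicate 1 or 2, D8 replicate 2, D10 replicate 2 or any one of the D28 libraries (adjusted p from 0.0522 to 0.18), and in 5 other settings that kept the fold threshold. Its D28 call was lost without D7 replicate 3 (limma adjusted p = 0.0591) or D28 replicate 3 (adjusted p = 0.0501). Pnpla3 shares exon bases on its own strand with the gene model Gm49513, so its reads may be split or shared in counting.

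Among the transcription factors, Pparg (chr6:115360951-115490399, plus strand) was at 6.86, 7.78 and 7.07 at D7, 7.08, 6.37 and 7.12 at D8, 6.81, 6.37 and 6.54 at D10 and 10.08, 9.91 and 10.36 at D28. The D7 and D8 libraries overlapped, as did those of D8 and D10, and D28 stood apart from all of them. Pparg did not pass the threshold at D10 against D7 (log2 fold change -0.66, short of the fold threshold, with a limma adjusted p = 0.0456) and was higher at D28 than at D7 by 2.88 (standard error 0.25, limma adjusted p = 3.5e-07). Cebpa, its partner in mature adipocytes, was at 9.17, 9.03 and 9.22 at D7, 9.28, 9.08 and 8.77 at D8, 8.73, 9.09 and 9.17 at D10 and 10.93, 11.01 and 11.39 at D28. Its level overlapped across the first 3 time points and was 1.97 higher at D28 than at D7 (standard error 0.16, limma adjusted p = 1.4e-07).

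The earlier factors of the cascade behaved otherwise. Cebpd was at 12.05, 11.77 and 11.99 at D7, 10.03, 10.04 and 10.31 at D8, 9.27, 9.37 and 9.40 at D10 and 12.38, 12.50 and 12.66 at D28. It fell by 2.59 at D10 against D7 (standard error 0.11, limma adjusted p = 4.6e-10) and rose by 3.17 to D28 (0.11, adjusted p = 9.1e-12), where it was 0.57 above D7 and under the fold threshold. Cebpb was at 9.33, 9.03 and 9.36 at D7, 9.58, 9.61 and 9.60 at D8, 10.64, 9.79 and 10.22 at D10 and 9.71, 9.80 and 9.95 at D28. Its log2 fold change of 0.97 at D10 against D7 did not reach the fold threshold, and was 1.02, 1.03 and 1.19 without D7 replicate 1, D7 replicate 3 or D10 replicate 2, past it. Cebpd and Cebpb share exon bases with a gene on the opposite strand (Spidr and Tmem189). So do Cebpa, Srebf1, Mlxipl, Ebf2, Plin4, Me1, Elovl6, Lipe, Agpat2, Gpd1, Acsl1 and Mogat1, 14 of the 41 genes in all, and Srebf1 also shares bases on its own strand with Mir6922. The strand setting of the counting is not given in the sources used here, so reads of these genes may include their partners'.

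Srebf1, which drives lipogenic genes under insulin, was at 13.69, 13.42 and 13.82 at D7, 12.49, 12.61 and 13.20 at D8, 11.73, 11.77 and 11.75 at D10 and 13.53, 13.87 and 13.93 at D28. It fell by 1.89 at D10 against D7 (standard error 0.17, limma adjusted p = 3.8e-07), rose by 2.02 to D28 (0.17, adjusted p = 8.8e-08), and its D28 and D7 libraries overlapped (log2 fold change 0.13). Mlxipl, the glucose-responsive factor ChREBP, was at 4.49, 4.43 and 4.79 at D7, 4.77, 3.43 and 1.97 at D10 and 6.73, 6.77 and 7.38 at D28, 2.39 above D7 (standard error 0.53, limma adjusted p = 0.00219). Ebf2, a factor of adipocyte precursors, ranged from 5.75 to 6.35 at D7, 5.16 to 5.57 at D8, 5.71 to 6.47 at D10 and 7.59 to 8.22 at D28, 1.80 above D7 (standard error 0.27, limma adjusted p = 8.2e-05). Zfp423, a factor of preadipocyte commitment, did not pass the threshold in any comparison, with D7 libraries from 7.87 to 8.42 and D28 libraries from 8.18 to 8.69. From D10 to D28 it was at the edge, and passed with median-of-ratios scaling (1.06), without D10 replicate 1 (1.01) or without D28 replicate 2 (1.07).

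**Figure D3:**
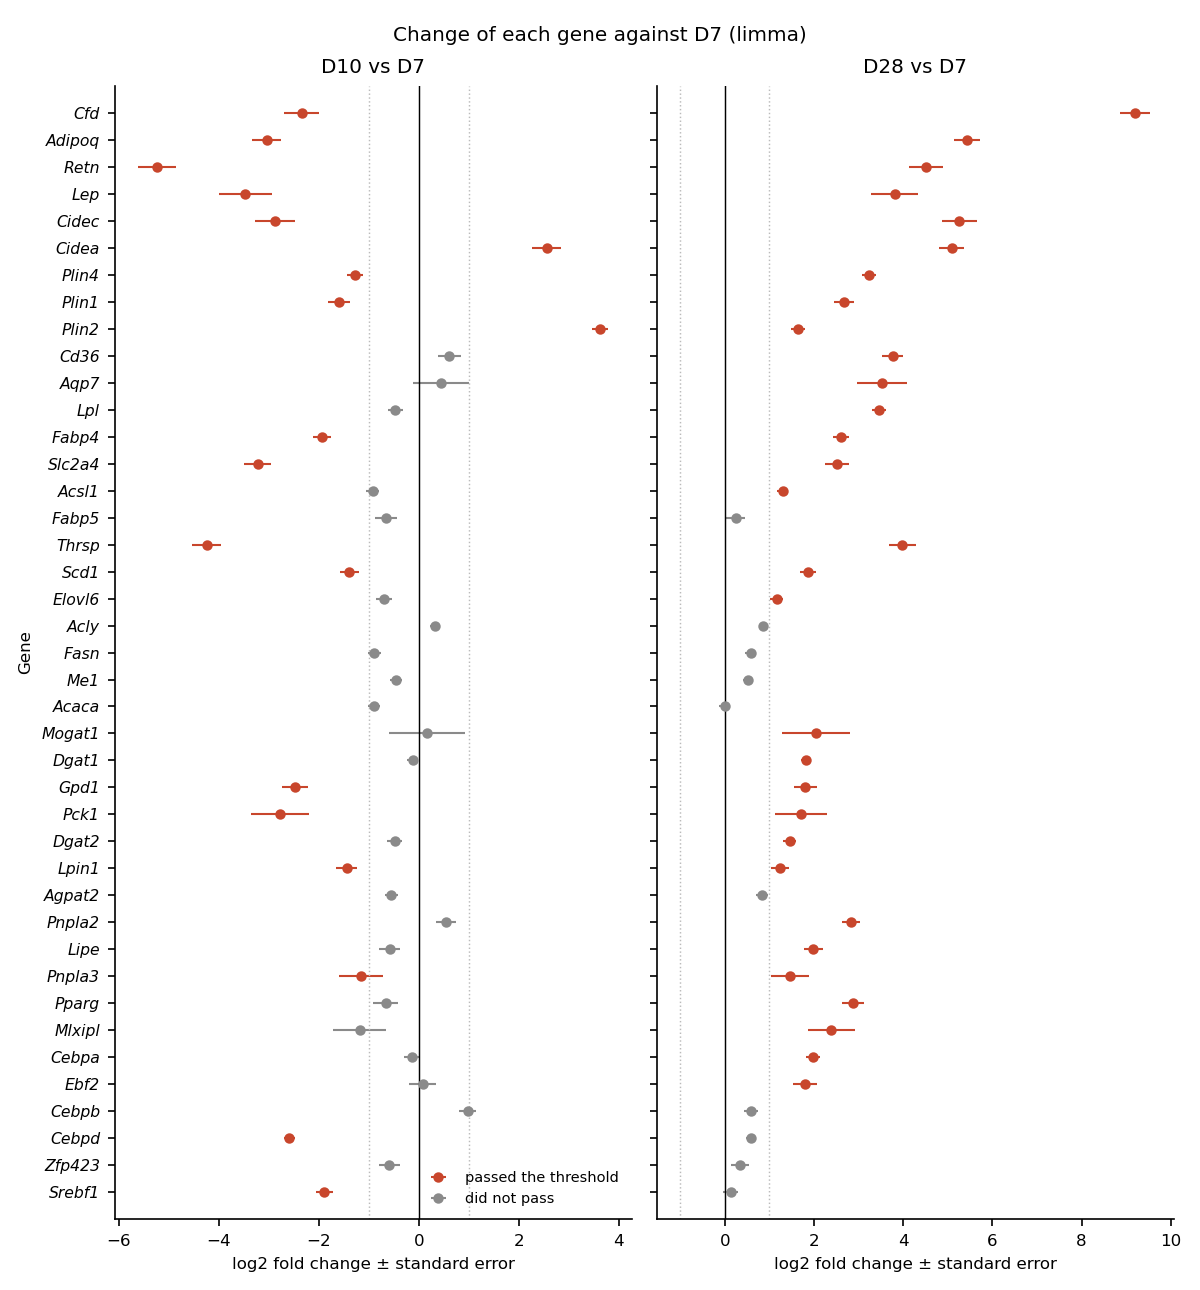
Log2 fold change (points) with standard error (bars) from limma for each of the 41 genes, D10 against D7 on the left and D28 against D7 on the right; red points passed the threshold and dotted lines mark a log2 fold change of -1 and 1. On the left 17 red points lie below -1 and 2, Plin2 and Cidea, above 1, and on the right 31 red points, Cfd among them, lie above 1 and none below -1. Both panels share the D7 libraries, and the tests of genes listed with results in view are a description.

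The 10 genes not called at D28 against D7 were Acaca, Acly, Fasn and Me1 of fatty acid synthesis, Agpat2, Fabp5, and the factors Cebpb, Cebpd, Srebf1 and Zfp423. By role, 3 of 3 adipokine genes other than Cfd, 5 of 5 droplet, 3 of 3 lipolysis, 6 of 7 uptake and transport, 6 of 7 triglyceride synthesis, 3 of 7 lipogenesis and 4 of 8 transcription factor genes rose in that comparison. At D10 against D7, 4 of 4 adipokine, 3 of 5 droplet, 1 of 3 lipolysis (Pnpla3), 2 of 7 uptake and transport, 3 of 7 triglyceride synthesis, 2 of 7 lipogenesis and 2 of 8 transcription factor genes fell. The libraries of the compared time points did not overlap for 35 genes at D10 against D7 and for 37 at D28 against D7. The same held for 47.5% and 46.9% of all genes tested, and nothing is read from the difference.

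The D28 libraries differed among themselves in a shared way. Replicate 3 held the highest level of the 3 for 35 of the 41 genes, replicate 2 for 6 and replicate 1 for 0, while replicate 1 was lowest for 26. For genes with a large change the spread was small beside it: Adipoq ranged over 12.30 to 12.74 and Cfd over 13.58 to 14.20 at D28. For genes with a smaller change against D7, such as Pck1, Fasn and Srebf1, the spread was larger beside that change (values above). With D28 replicate 3 or any other library left out, between 28 and 31 of the genes were higher at D28 than at D7 and between 33 and 35 higher than at D10. The count of falls at D10 against D8 was the one that moved most, from 11 to 7 without D8 replicate 3.

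Other genes of adipocyte biology were read from lists chosen by function, with earlier results of these data known. Of 24 further adipocyte genes, 12 fell and 2 rose at D10 against D7, and 13 rose and 1 fell at D28 against D7, with medians of -0.94 and 1.36. At an unadjusted p under 0.05, 4 were higher and 16 lower at D10, and 18 higher and 2 lower at D28. Hp, haptoglobin, had a mean of 13.44 at D7, 11.38 at D8 and 7.83 at D10, then 16.52 at D28, and fell by 5.60 at D10 against D7 (standard error 0.22, limma adjusted p = 2.4e-10). Car3, the carbonic anhydrase of adipocytes, fell by 5.11 (0.74, limma adjusted p = 5.3e-05), and Lgals12, a droplet-associated galectin, went from a mean of 3.98 at D7 to 0 in every D10 library. At D28 the largest rises against D7 were those of Adrb3, the beta-3 adrenergic receptor (4.92, limma adjusted p = 0.0001), Acvr1c (4.51, adjusted p = 1.9e-05) and Adig, adipogenin (4.40, adjusted p = 8.9e-10). Acvr1c held at most 3 reads in each D7 library, so its fold depends on the 1 added to the counts. Adig had also risen by 2.00 at D10 (limma adjusted p = 2.5e-06), as had Nat8l by 3.05 (adjusted p = 3e-05), and the chemerin receptor gene Cmklr1 fell by 1.00 at D28 (adjusted p = 0.00035).

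Of 16 other regulators that promote adipogenesis, 2 rose and 1 fell at D10 against D7, and 5 rose and 1 fell at D28 against D7 (5 higher and 4 lower, and 9 higher and 3 lower, at an unadjusted p under 0.05). Nr1h3, the oxysterol receptor LXR alpha, rose by 2.71 at D28 (limma adjusted p = 9.3e-08), Rxrg by 2.05 (adjusted p = 0.00153) and Ebf1 by 1.84 (adjusted p = 4.5e-06), while Medag fell by 1.77 (adjusted p = 7.1e-08). At D10, Ppargc1a rose by 1.73 (limma adjusted p = 0.00078) and Ppargc1b by 1.18 (adjusted p = 0.0155), both coactivators of mitochondrial genes, and Klf15 fell by 1.20 (adjusted p = 8.3e-06). Of 16 regulators that restrain adipogenesis, 4 rose and 5 fell at D10, and 2 rose and 2 fell at D28, with a median of -0.54 for D28 against D7. At an unadjusted p under 0.05, 6 were higher and 7 lower at D10, and 2 higher and 7 lower at D28. Klf2 fell by 3.12 (limma adjusted p = 6.2e-08), Dlk1, the preadipocyte factor Pref-1, by 3.00 (adjusted p = 4.3e-08) and Wnt6 by 2.67 (adjusted p = 0.00178) at D10. In the same comparison Ddit3 rose by 1.69 (limma adjusted p = 8.8e-06), Gata3 by 1.68 (adjusted p = 0.0093) and Sirt1 by 1.52 (adjusted p = 0.00016). At D28, Wnt10b fell by 2.66 (limma adjusted p = 2e-05) and Wnt5a by 1.15 (adjusted p = 4.7e-06), and Nr2f2 and Tcf7l2 rose by 1.12 and 1.09 (adjusted p = 0.00414 and 0.00013).

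Among 26 other glycerolipid and droplet genes, 4 rose and 3 fell at D10 against D7, and 5 rose and 1 fell at D28 (9 higher and 7 lower, and 12 higher and 3 lower, at an unadjusted p under 0.05). Acsl6, an acyl-CoA synthetase, rose by 3.65 at D28 (limma adjusted p = 0.00063), Plin5, a perilipin of oxidative tissue, by 2.47 (adjusted p = 0.00447) and Agpat3 by 1.41 (adjusted p = 3e-08), while Mogat2 fell by 1.36 (adjusted p = 0.0351). At D10, G0s2, an inhibitor of Pnpla2, fell by 1.87 (limma adjusted p = 5.7e-05), Plin5 by 1.66 (adjusted p = 0.0384) and Agpat4 by 1.56 (adjusted p = 6.3e-08). Lpin2, Agpat3 and Gk rose at D10 by 1.30, 1.19 and 1.18 (limma adjusted p = 1.6e-05, 1.7e-07 and 0.00253). Among 23 other genes of fatty acid synthesis, 3 rose and 4 fell at D10, and 7 rose and 2 fell at D28 (5 higher and 9 lower, and 12 higher and 2 lower, at an unadjusted p under 0.05). Acss2 and Acacb fell at D10 by 1.47 and 1.37 (limma adjusted p = 2.5e-06 and 0.0001) and stood 1.71 and 1.93 above D7 at D28 (adjusted p = 5.4e-07 and 4.1e-06). Scd2 fell by 1.26 at D10 (limma adjusted p = 2.4e-05), while Elovl7 rose by 2.15 (adjusted p = 6.8e-06) and Pgd by 1.40 (adjusted p = 3.3e-07). Insig1, which retains SREBP in the endoplasmic reticulum, rose by 2.09 at D10 (limma adjusted p = 2.3e-06) and was 1.77 above D7 at D28 (adjusted p = 1.4e-05). Elovl4 and Fads3 fell at D28 by 1.50 and 1.34 (limma adjusted p = 0.00059 and 3.5e-06).

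**Figure D4:**
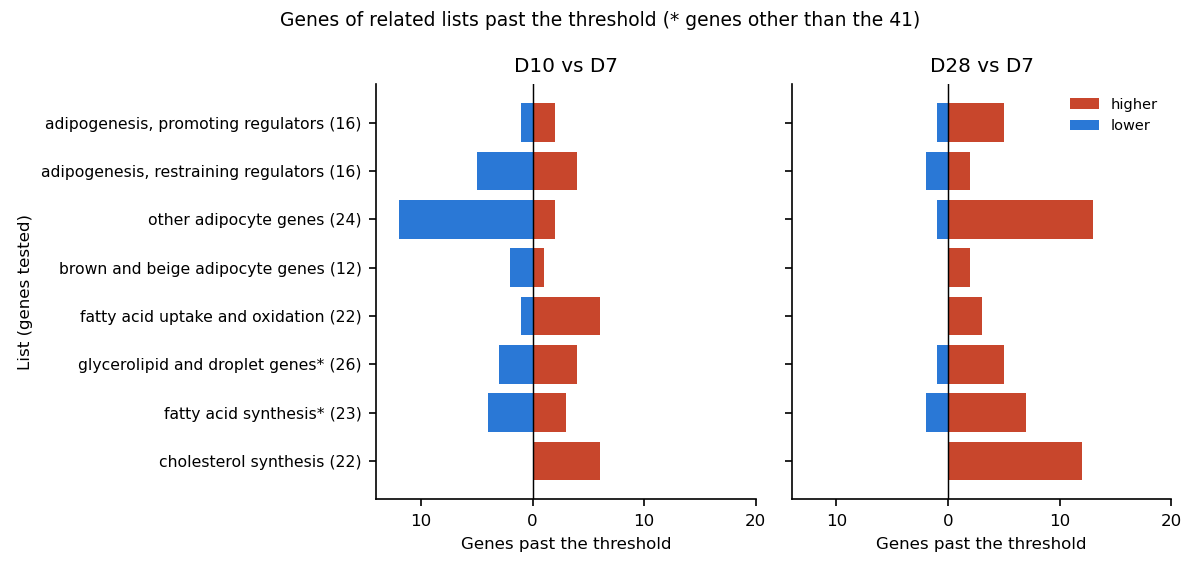
Number of genes that rose (red, right of 0) or fell (blue, left of 0) at D10 against D7 and at D28 against D7 in 8 lists of related genes, with the number tested in parentheses. The list of other adipocyte genes has 12 falls at D10 and 13 rises at D28, and cholesterol synthesis has rises only, 6 and 12.

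Marker lists of other cell types were read in the same libraries, and their part in the changes of the adipocyte genes was not tested. Of 20 chondrocyte genes, 14 fell and 0 rose at D10 against D7 by limma (14 and 0 at an unadjusted p under 0.05), with a median of -1.61, and 10 rose and 2 fell from D10 to D28, with a median of 1.09. At D28 against D7, 4 were higher and 5 lower. The 4 were Ucma, with a log2 fold change of 2.21, Cnmd with 1.15, Matn1 with 1.04 and Snorc with 1.04. The 5 were Col10a1, with a log2 fold change of -2.99, Epyc with -2.201, Chad with -1.88, Col9a1 with -1.71 and Col11a1 with -1.22. The list summed to an unlogged level of 3167800 to 3276100 at D7, 1684400 to 1869300 at D10 and 2782200 to 2915200 at D28, but between 51.1% and 71.4% of it was Col2a1, the main collagen of cartilage. Col2a1 held the top value of each D7, D8 and D28 library, which the normalization makes equal, so its level could not differ between these libraries. Without Col2a1 the sum was 1180200 to 1288600 at D7, 728350 to 913230 at D10 and 794580 to 927660 at D28. The first factors of the list, Sox9, Sox5 and Sox6, were detected in every library, and at D28 they stood at 12 to 12.52, 9.58 to 10.06 and 10.10 to 10.34. None of these 3 passed the threshold at D28 against D7 (log2 fold changes -0.13, -0.03 and -0.33), and Sox6 fell by 1.03 at D10.

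Of 11 osteoblast genes tested, 5 rose and 4 fell at D10 against D7, and 5 rose and 2 fell at D28 against D7, with medians of -0.35 and 1.45. Bglap2 and Bglap, the osteocalcin genes, rose by 5.87 and 5.77 at D28 (limma adjusted p = 2.3e-08 and 1.1e-07). Dmp1 rose there by 2.21 (limma adjusted p = 0.00125), while Ibsp fell by 1.49 (adjusted p = 0.00087) and Col1a1 by 1.42 (adjusted p = 0.0039). At D10 against D7 the largest rises were those of Bglap2, Bglap and Dmp1 (log2 fold changes 4.32, 3.25 and 3.17). The largest falls were those of Ibsp, Alpl and Col1a1 (-6.34, -3.26 and -1.51). The list summed to 487550 to 683940 at D7 and 506190 to 598960 at D28, and Spp1, its most abundant gene, took 15.0% to 25.4% of it at D7 and 63.6% to 66.8% at D28. Without Spp1 the list summed to 363690 to 575930 at D7 and 178280 to 198930 at D28. Its first genes at D28 were Runx2 at 9.47 to 9.65, Sp7 at 9.88 to 10.44 and Col1a1 at 17.27 to 17.38, and the osteocyte gene Sost was at 0 there. The skeletal muscle list (11 genes) summed to 4165.8 to 5199.8 at D7 and 172.0 to 295.25 at D28, with 11 of 11 lower, and its first genes were near 0 at D28 (Myh3 at most 1.22, Myod1 at most 0.87, Myog at most 1.84).

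The list of marrow stromal (adipo-CAR) genes summed to 14016 to 16478 at D7, 11364 to 14144 at D8, 10486 to 11218 at D10 and 66824 to 97717 at D28. Without Apoe, its most abundant gene, the sum was 9188.5 to 10650 at D7, 9102.7 to 9845.6 at D10 and 37296 to 51196 at D28. Of its 11 genes, 1 rose and 5 fell at D10 against D7, and 7 rose and 1 fell at D28 against D7. Cxcl12, the chemokine that names these cells, was at 11.75, 11.22 and 11.85 at D7, 7.40, 7.48 and 7.40 at D10 and 13.32, 13.98 and 13.82 at D28, while Lepr, their receptor marker, was at 7.56 to 7.89 at D7 and 4.86 to 5.68 at D28, a fall of 2.56 (limma adjusted p = 2.5e-06). Kitl, the stem cell factor they supply, was at 9.42 to 9.51 at D7 and 11.01 to 11.34 at D28. Such marrow cells are known to express Adipoq and Lpl themselves.

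Of 16 macrophage genes, 2 rose and 6 fell at D10 against D7, with a median of -1.31, 11 rose and 1 fell from D10 to D28, with a median of 2.28, and 5 were higher and 1 lower at D28 than at D7. The list summed to 1489.5 to 1739.8 at D7, 1328.3 to 1695.7 at D8, 1379.3 to 1829.7 at D10, and 1823.2, 7794.2 and 1829.9 in the D28 libraries, so D28 replicate 2 stood apart. Lyz2 took 53.7% to 58.5% of the sum at D7 and 24.1% to 34.2% at D10, and without it the sum was 618.04 to 766.96 at D7 and 964.62 to 1389.2 at D10. Most of the latter was Cd68 and Cd14, the 2 genes that rose at D10 against D7 (log2 fold changes 1.88 and 1.68). The largest of the 6 falls were those of C1qb, C1qc and Cd163 (-4.63, -3.15 and -3.03). The first genes of the list in the D28 libraries were Adgre1 at 4.75, 7.49 and 5.36, Csf1r at 4.72, 7.92 and 5.13, and Cd68 at 7.45, 8.72 and 8.16. Adipoq was at 12.30, 12.45 and 12.74 in the same libraries, and without replicate 2 the counts were 29 genes higher at D28 than at D7 and 34 higher than at D10.

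Of 12 endothelial genes, 4 rose and 1 fell at D8 against D7, with a median of 1.57, and 2 rose and 1 fell at D10 against D7, with a median of -0.04. The list had 3 genes lower at D28 than at D7 and none higher by limma (1 higher and 4 lower at an unadjusted p under 0.05). It summed to 1381.1 to 1567.1 at D7 and 591.42 to 654.54 at D28, of which Erg made 85.1% to 87.2% at D7. Without Erg the sum was 193.17 to 205.83 at D7, 526.96 to 659.92 at D10 and 192.38 to 279.75 at D28. Most of this sum at D10 was Vwf, which was at a level of 8.59 to 8.70 there and 4.64 to 5.14 at D7. The 2 rises at D10 against D7 were those of Vwf and Kdr, by 3.72 and 3.09, and Erg fell by 2.15. At D28, Pecam1 was at 1.81 to 3.70, Cdh5 at 0 to 1.12 and Kdr at 0 to 4.00.

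**Figure D5:**
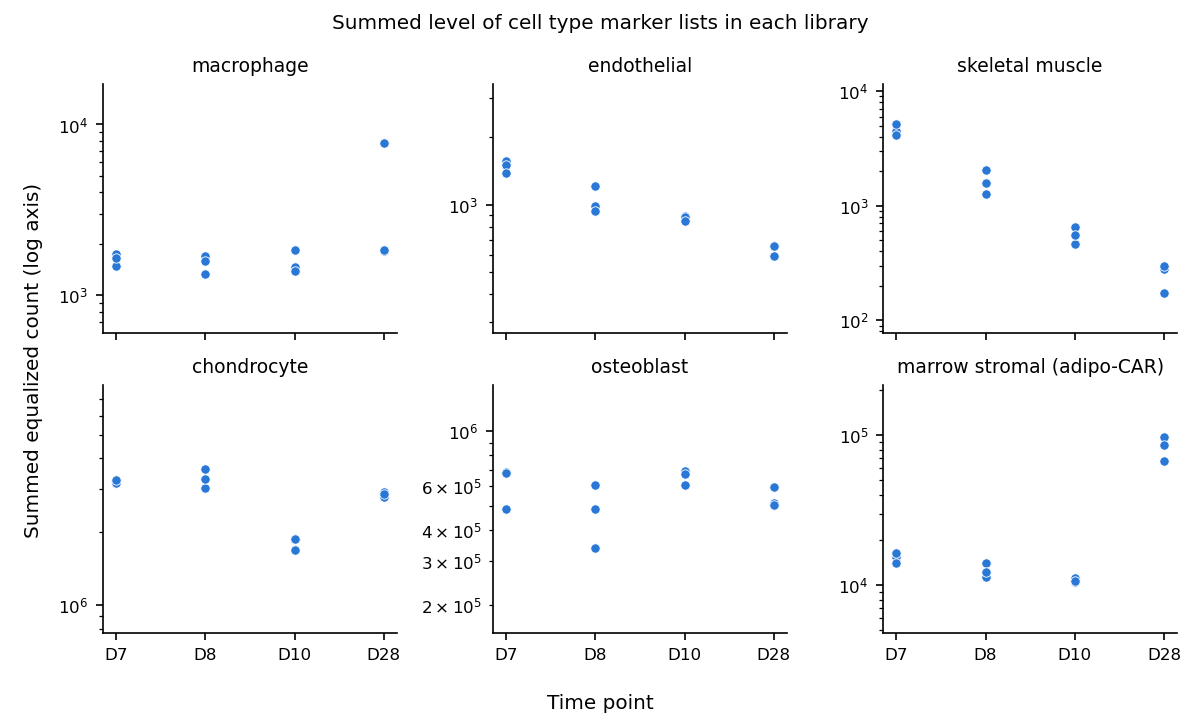
Summed unlogged level (equalized count, log axis) of 6 cell type marker lists in each library; each point is 1 library and there are 3 per time point. The marrow stromal list is highest at D28 (66824 to 97717), 1 D28 library lies apart for macrophage genes at 7794.2, and the muscle sum declines from D7 to D28, while the chondrocyte sum is mostly Col2a1 and the endothelial sum at D7 mostly Erg.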

How the data were processed

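RNA-seq of 12 libraries was analysed, with 3 libraries per time point; other assays of the study were not used here. The authors deposited 1 table of log2 values, the log2 of equalized HTSeq counts plus 1. The submitters' processing notes name Trimmomatic 0.36, HISAT2, Cufflinks and HTSeq with GRCm38, whereas the supplementary methods name the human build hg38; the table holds mouse symbols. The labels describe more than 1 stranded library kit. Sorted values were nearly identical between libraries (median spread 0.00284), as after quantile normalization, so no count model was run and totals are unknown; relative depth came from 562 low genes. The 17674 genes whose level reached 1 in 3 or more libraries entered a fit by limma 3.58.1 (R 4.3.3) with 1 coefficient per time point with a mean-variance trend (residual degrees of freedom 8), which was tested on simulated data; p-values are two-sided and moderated. The study's own rule, a Student test per gene with unadjusted p, was run as an alternative. Python 3.11.15 served for sums, positions (GENCODE M21, GRCm38), promoter matches and figures, through scipy 1.17.1, matplotlib 3.10.9, numpy 2.4.6 and pandas 2.3.3.

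The members and lists were chosen with earlier results of these data known. All 41 genes are accounted for; from each related list up to 3 of the largest rises and falls past the threshold were named, and from each marker list its sum, its counts and its first 3 genes. Sost, Ucp1, Prdm16 and the chondrocyte genes that changed at D28 were named after their values were seen. So were the osteoblast, endothelial and macrophage genes given with a change, and the most abundant gene of a list. Bounds against a time point at 0 used a floor of 3 reads per library (level up to 2.87), and counting intervals are 95% exact Poisson intervals of the lower count. Alternatives covered the filter, scaling, added constant, low values, replicate number, test, fold threshold, variance prior and each library left out. No sequencing batch or date is given in the labels, so batches could not be examined. Median-of-ratios scaling moved the median log2 fold change of all genes for D28 against D10 from -0.10 to 0.01.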

Additional observations from a re-analysis of the deposited data

How the results depend on the processing

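In 22 alternatives, 10 settings and each of the 12 libraries left out, no gene that passed the threshold changed direction. A fold threshold of 2 on the log2 scale gave 0 higher and 3 lower for D8 against D7, 1 higher and 2 lower for D10 against D8, 10 lower for D10 against D7, 0 lower for D28 against D10 and 18 higher for D28 against D7. Median-of-ratios scaling gave 38 higher in place of 33 for D28 against D10 (Acaca, Fabp5, Me1, Mogat1 and Zfp423 gained) and 18 lower in place of 17 for D10 against D7 (Acsl1 gained). Without a fold threshold, 5 were higher and 19 lower for D10 against D8, and 6 higher and 29 lower for D10 against D7. With each library left out, D8 against D7 gave 2 to 2 higher and 9 to 13 lower, D10 against D8 2 to 4 and 7 to 12, D10 against D7 2 to 3 and 16 to 18, D28 against D10 33 to 35 and 1 to 1, and D28 against D7 28 to 31 and 0 to 0. Without D8 replicate 3, D10 against D8 had 7 falls in place of 11 (Pck1, Plin1, Plin4 and Srebf1 no longer passed); the cause was not tested. Of the calls, 11 of 12, 8 of 14, 18 of 19, 34 of 34 and 28 of 31 were kept with every library left out, in that order of comparisons. Raising low values to the 3-read level lost Lep for D8 and D10 against D7, Retn and Pck1 for D10 against D8, Pck1 and Pnpla3 for D10 against D7 and Mogat1 for D28 against D7. Replicate numbers did not pair the libraries: same-number deviations correlated at -0.0583 to 0.0665 over 18 pairs, and 3 of 12 libraries correlated best with their own number. With the replicate block, 30 genes were higher at D28 than at D7, Mogat1 being lost (2.05, limma adjusted p = 0.0648), and no other call was lost. Genes under 3 reads, such as Lep and Pck1 at D10, are limited by depth.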

Other observations

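Cholesterol synthesis, which shares the SREBP system with lipogenesis, was measured by 22 genes. Of these, 6 rose and 0 fell at D10 against D7, and 12 rose and 0 fell at D28 against D7 by limma, with medians of 0.50 and 1.08. At an unadjusted p under 0.05, 15 were higher and 4 lower at D10, and 19 higher and 1 lower at D28. Msmo1, a sterol methyl oxidase, rose by 2.09 at D10 (limma adjusted p = 3.1e-07), Hsd17b7 by 1.22 (adjusted p = 3.8e-07) and Fdps, farnesyl diphosphate synthase, by 1.20 (adjusted p = 0.00096). At D28 the largest rises were those of Nsdhl (1.90, limma adjusted p = 6e-08), Tm7sf2 (1.88, adjusted p = 7.2e-05) and Hsd17b7 (1.84, adjusted p = 5.6e-09). Across the alternatives, 1 to 13 genes of the list rose at D10 and 0 to 18 at D28, changed fold thresholds included.

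Of 22 genes of fatty acid uptake and oxidation, 6 rose and 1 fell at D10 against D7, and 3 rose and 0 fell at D28 by limma, with medians of -0.01 and 0.59. At an unadjusted p under 0.05, 7 were higher and 5 lower at D10, and 16 higher and 1 lower at D28. The fatty acid transport protein gene Slc27a1 rose by 1.89 at D10 (limma adjusted p = 2.3e-07) and was 1.34 above D7 at D28 (adjusted p = 8.4e-06). Acadl, long-chain acyl-CoA dehydrogenase, rose by 1.53 at D10 (limma adjusted p = 1.7e-07) while Acadm, the medium-chain enzyme, fell by 1.17 (adjusted p = 6.1e-07). Cpt1b rose by 2.02 at D10 (limma adjusted p = 0.0316) from at most 3 reads in each D7 library. Ehhadh and Etfb rose by 1.20 each at D28 (limma adjusted p = 0.00133 and 0.00173). Of 12 brown and beige adipocyte genes tested, 1 rose and 2 fell at D10 and 2 rose and 0 fell at D28 by limma, with medians of 0.55 and 0.95. At an unadjusted p under 0.05, 3 were higher and 2 lower at D10, and 6 higher and 0 lower at D28. Cox8b, a muscle and brown fat subunit of cytochrome oxidase, fell by 2.46 at D10 (limma adjusted p = 0.0133) and was 3.88 above D7 at D28 (adjusted p = 0.00061). Dio2, the deiodinase that activates thyroid hormone, fell by 1.24 at D10 (limma adjusted p = 0.00238) and was 1.27 above D7 at D28 (adjusted p = 0.00222). Ucp1, the uncoupling protein that defines brown fat, had at most 3 reads in any library and 0 in every D28 library, and Prdm16 had mean levels of 7.38 at D7 and 7.82 at D28.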
